A study of Mus musculus with 20 samples.

Results

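Muscle breaks down its proteins largely through the ubiquitin-proteasome system, and 8 genes of that system and of its control were followed in the gastrocnemius, a calf muscle of the mouse. They were chosen by symbol from the 53311 gene entries of the count table. They are 4 ubiquitin ligases or relatives found mainly in muscle (Fbxo32, Trim63, Trim54 and Trim55), 3 forkhead transcription factors (Foxo1, Foxo3 and Foxo4) and the deubiquitinase gene Usp2. The selection rule is the list of symbols and uses no measured value, although the list was drawn up with earlier results of these data known. All 8 passed the filter on low counts, which left 13560 genes for testing.

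RNA from 20 samples was sequenced, in 4 groups of 5. Every animal had the same genotype label, Cre+:iMSBmal1 fl/fl, so the animals without the deletion also carried Cre and the floxed Bmal1 alleles. The labels then gave the treatment as vehicle or iMSBmal1KO, a knockout of the clock gene Bmal1 in skeletal muscle, each without exercise or with it. All muscles were collected at zeitgeber time 13 (hours after lights on). In the exercised groups that was 1 h after a treadmill run of 30 min. The groups are called resting vehicle, exercised vehicle, resting knockout-labelled and exercised knockout-labelled. Below, genotype stands for knockout-labelled against vehicle, although the labels give this as a treatment. In this design an effect of the treatment itself cannot be told apart from one of the deletion. The description label of the 5 exercised knockout-labelled samples speaks of training, whereas their titles and treatment labels give acute exercise, as used here. The promoter driving Cre, the age and the sex of the animals, and whether every sample came from its own animal, are not given in the sources used here. The p-values set group differences against the spread between these samples, which may not be the spread between animals.

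Ubiquitin ligases attach ubiquitin to a protein and so mark it for the proteasome, and deubiquitinases remove it again. Fbxo32 (atrogin-1) and Trim63 (MuRF1) are the standard marker genes of muscle wasting. FOXO transcription factors, which insulin signalling through Akt keeps out of the nucleus, switch both on when feeding and growth signals fall. Usp2 is also known as a clock-controlled gene in several tissues, BMAL1 and its partner CLOCK binding E-boxes in such genes.

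Stretches of DNA just before the start of a gene are shown for 3 members because the clock and FOXO factors bind short motifs there. The RefSeq promoter table (GRCm38.p6) had an entry for 5 of the 8 members (Trim63, Trim54, Foxo1, Foxo3 and Usp2), and 250 bases before each start were searched on both strands. The motifs were the E-box CACGTG, the core FOXO element GTAAACA and the D-box TTATGTAA. Among all 32851 windows of this length, 6.02% held the E-box, 3.17% the FOXO element and 0.819% the D-box. The windows of Trim63, at chr4:134314870-134315119, of Usp2, at chr9:44084670-44084919, and of Foxo1, at chr3:52268087-52268336, all on the plus strand, read 5′ to 3′ as follows, with the match in capitals.
Trim63: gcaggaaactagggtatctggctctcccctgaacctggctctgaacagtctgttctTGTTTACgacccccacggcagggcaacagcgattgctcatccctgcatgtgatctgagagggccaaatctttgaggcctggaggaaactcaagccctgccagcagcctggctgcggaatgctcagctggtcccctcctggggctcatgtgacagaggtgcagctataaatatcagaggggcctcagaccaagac
Usp2: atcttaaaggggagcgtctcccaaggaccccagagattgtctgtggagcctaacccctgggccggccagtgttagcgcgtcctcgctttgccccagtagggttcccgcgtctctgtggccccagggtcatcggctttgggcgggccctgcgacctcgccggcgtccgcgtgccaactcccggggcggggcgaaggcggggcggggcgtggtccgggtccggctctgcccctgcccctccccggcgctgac
Foxo1: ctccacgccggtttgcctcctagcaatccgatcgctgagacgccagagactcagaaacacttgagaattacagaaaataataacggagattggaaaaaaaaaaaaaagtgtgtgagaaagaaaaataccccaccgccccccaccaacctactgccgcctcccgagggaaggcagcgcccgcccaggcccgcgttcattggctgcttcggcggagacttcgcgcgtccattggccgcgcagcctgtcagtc
The capitals in Trim63 are the FOXO element on the minus strand, 194 to 188 bases before the start. It was the only match among the 5 windows. A match is a string of letters, not a measured binding site, and the absence of one concerns this window only. The window of Usp2 lies inside the gene, because its RefSeq start is 17899 bp downstream of the gene start in the GENCODE M21 annotation, which lists 9 transcripts for it. The Usp2 window is rich in G and C (71.6%), against 56.8% for Trim63 and 56.0% for Foxo1.

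Total counts ran from 8045154 to 11269812 per sample, and the least abundant reading of a member was 124 counts, for Foxo1. Levels below are CPM, counts scaled to 1e6 per library after correction of the library size by TMM factors. The gene targeted in the model, Arntl (which encodes BMAL1), was not lower in the knockout-labelled groups. Its level was 9.74 to 14.9 CPM in resting vehicle, 7.90 to 21.4 in exercised vehicle, 12.1 to 16.4 in resting knockout-labelled and 11.5 to 21.2 in exercised knockout-labelled samples. The log2 difference between genotypes was 0.24 (SE 0.23, adjusted p = 0.725) at rest and 0.20 (SE 0.23, adjusted p = 0.689) after exercise. Counts are per gene, so reads from parts of Arntl outside a deletion would be counted too, and this check does not test the labels. The samples held muscle RNA: the 6 myofibre markers (Ckm, Acta1, Myh4, Myh1, Tnnt3, Pvalb) summed to between 97160 and 175396 CPM. The 8 slow-fibre markers (such as Myh7 and Tnnt1) varied far more, and 5 samples stood apart with a mean log2 CPM of at most 3.45, against 5.17 to 9.11 in the other 15. These 5 are replicate 5 of resting vehicle, replicates 2 and 4 of exercised vehicle, and replicates 2 and 4 of exercised knockout-labelled. The summed slow-fibre level ranged from 336 to 6532 CPM in resting vehicle, 78.5 to 6819 in exercised vehicle, 1327 to 8640 in resting knockout-labelled and 135 to 6490 in exercised knockout-labelled samples, with no marker at 0 throughout a group. Results that rest on those 5 samples are given with and without them, an analysis chosen after seeing the data. Markers of blood, fat cells, endothelium, fibroblasts, Schwann cells, leukocytes and satellite cells were low beside the myofibre markers. None of 40 comparisons of marker scores and library totals between groups passed an exact two-sided permutation test (lowest p = 0.127, lowest adjusted p = 0.757), where the smallest p possible is 0.00794. The mean slow-fibre log2 CPM still differed by 0.96 between genotypes at rest and by -0.42 after exercise. With exercise it differed by -1.37 in vehicle and by -2.75 in knockout-labelled muscle. With 5 samples a group and so wide a spread, the test does not show that the groups had the same fibre mix. In bulk muscle, fewer cells of a type and less RNA per cell cannot be told apart.

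Compared per length of exon, the members spanned a wide range of abundance. In resting vehicle samples Trim54 was the most abundant at 239.7 CPM per kb of exon, followed by Trim63 at 96.2, Fbxo32 at 63.4, Foxo4 at 47.4, Usp2 at 33.6 and Trim55 at 23.3 CPM per kb. Foxo3 and Foxo1 were lowest, at 3.49 and 3.07 CPM per kb. The sample ranges of neighbours in this order overlapped for Trim63 and Fbxo32, for Fbxo32 and Foxo4, and for Foxo3 and Foxo1, and were apart for the other pairs. The top 3 and their order were the same in all 4 groups. Usp2 held places from 4th of 8 in exercised vehicle (57.9 CPM per kb, overlapping Foxo4 at 47.4) to 6th in resting knockout-labelled samples (21 CPM per kb, overlapping Trim55 at 24.2). Foxo1 was last except in exercised vehicle, where its 8.21 CPM per kb stood above the 4.13 of Foxo3, with overlapping ranges. Across all 20 samples the highest level was 7.68 times the lowest for Foxo1 and 4.05 times for Usp2, but only 1.62 times for Trim55. The order per kb rests on GENCODE M21 exon lengths, and an antisense gene overlaps 26.6% of that of Trim54. Without division by length Fbxo32 led in resting vehicle at 442 CPM, against 344 for Trim54 and 273 for Trim63.

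**Figure D1:**
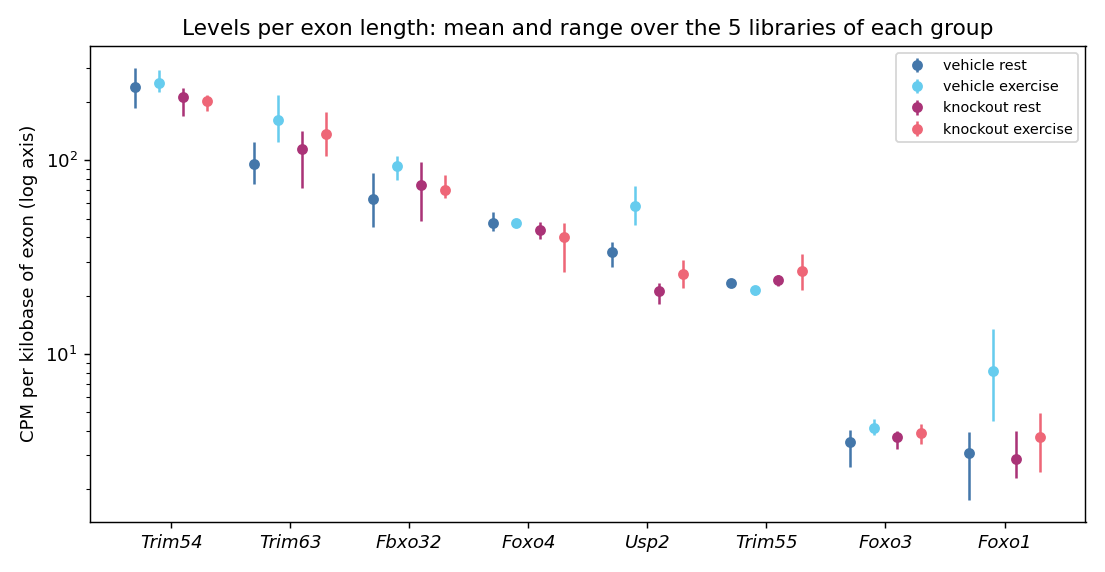
Level of each member per length of exon in the 4 groups (CPM per kb of exon, log axis); points are means of 5 samples and bars run from the lowest to the highest sample. Trim54, Trim63 and Fbxo32 are highest in every group, and Foxo1 and Foxo3 are the lowest pair.

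Usp2, which removes ubiquitin from target proteins, was the member that differed in most comparisons: it was lower in knockout-labelled muscle at rest and after exercise, and higher after exercise in vehicle muscle. In resting vehicle samples it stood at 164.1, 183.2, 176.1, 150.2 and 135.4 CPM (162 ± 19.4, SD, n = 5). In resting knockout-labelled samples it stood at 102.8, 112.5, 87.45, 97.26 and 106.8 CPM (101 ± 9.57, SD, n = 5). Every resting vehicle sample lay above every resting knockout-labelled sample. The fitted ratio was 0.626, a log2 difference of -0.67 (SE 0.12, 95% interval -0.93 to -0.42, adjusted p = 0.00138 by edgeR's quasi-likelihood test). Usp2 was the 1 of 8 members that passed at rest, where 3.86% of all genes tested passed, 2.06% lower and 1.80% higher. Its ranges did not overlap, as was so for 5.80% of all genes.

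Usp2 was also lower in knockout-labelled muscle after exercise. The exercised vehicle samples read 235.1, 296.2, 285.4, 354.2 and 224.7 CPM (279 ± 52.1, SD, n = 5). The exercised knockout-labelled samples read 139.4, 105.4, 121, 110.1 and 146.5 CPM (124 ± 18.0, SD, n = 5). The ranges were again apart (as for 6.29% of all genes), and the knockout-labelled level was 0.446 times that of vehicle (log2 difference -1.16, SE 0.12, 95% interval -1.42 to -0.91, adjusted p = 1.40e-06). All 5 exercised knockout-labelled samples lay below the mean of resting vehicle, but the readings of 139.4 and 146.5 CPM exceeded its lowest sample of 135.4 CPM. In vehicle muscle Usp2 rose 1.72-fold with exercise (log2 difference 0.79, SE 0.12, 95% interval 0.53 to 1.04, adjusted p = 0.00179), each exercised sample being above each resting one. In knockout-labelled muscle the difference with exercise was 0.30 (95% interval 0.04 to 0.55, adjusted p = 0.9995), so it did not pass, and the ranges overlapped.

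The difference between both Usp2 exercise responses was -0.49 on the log2 scale (95% interval -0.85 to -0.13), which did not pass adjustment over all genes (adjusted p = 0.756). Without the 5 samples low in slow-fibre markers this value was -0.13, the response being 0.55 (adjusted p = 0.0259) in vehicle and 0.42 (adjusted p = 0.228) in knockout-labelled muscle. The genotype difference of Usp2 was -0.74 (adjusted p = 6.17e-05) at rest and -0.87 (adjusted p = 1.74e-04) after exercise in those 15 samples. Usp2 passed in these 3 comparisons under all 11 other settings tried and in all 10 fits that each left out 1 sample. Averaged over rest and exercise the genotype difference was -0.92 (SE 0.09, adjusted p = 7.48e-08), and averaged over genotypes the exercise difference was 0.54 (SE 0.09, adjusted p = 0.00242). Usp2 was the only member that passed either. Of all genes tested, 11.0% passed the averaged genotype comparison (5.18% higher, 5.78% lower) and 0.634% the averaged exercise comparison (0.494% higher, 0.140% lower). An unadjusted p under 0.05 was reached by 24.2% and 8.28% of all genes there, and by 5 and 4 of the 8 members. The annotation places the protein-coding gene Gm49380 and the antisense gene Gm39325 on the opposite strand over 4.15% of the Usp2 exon length, and neither is an entry of the count table.

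**Figure D2:**
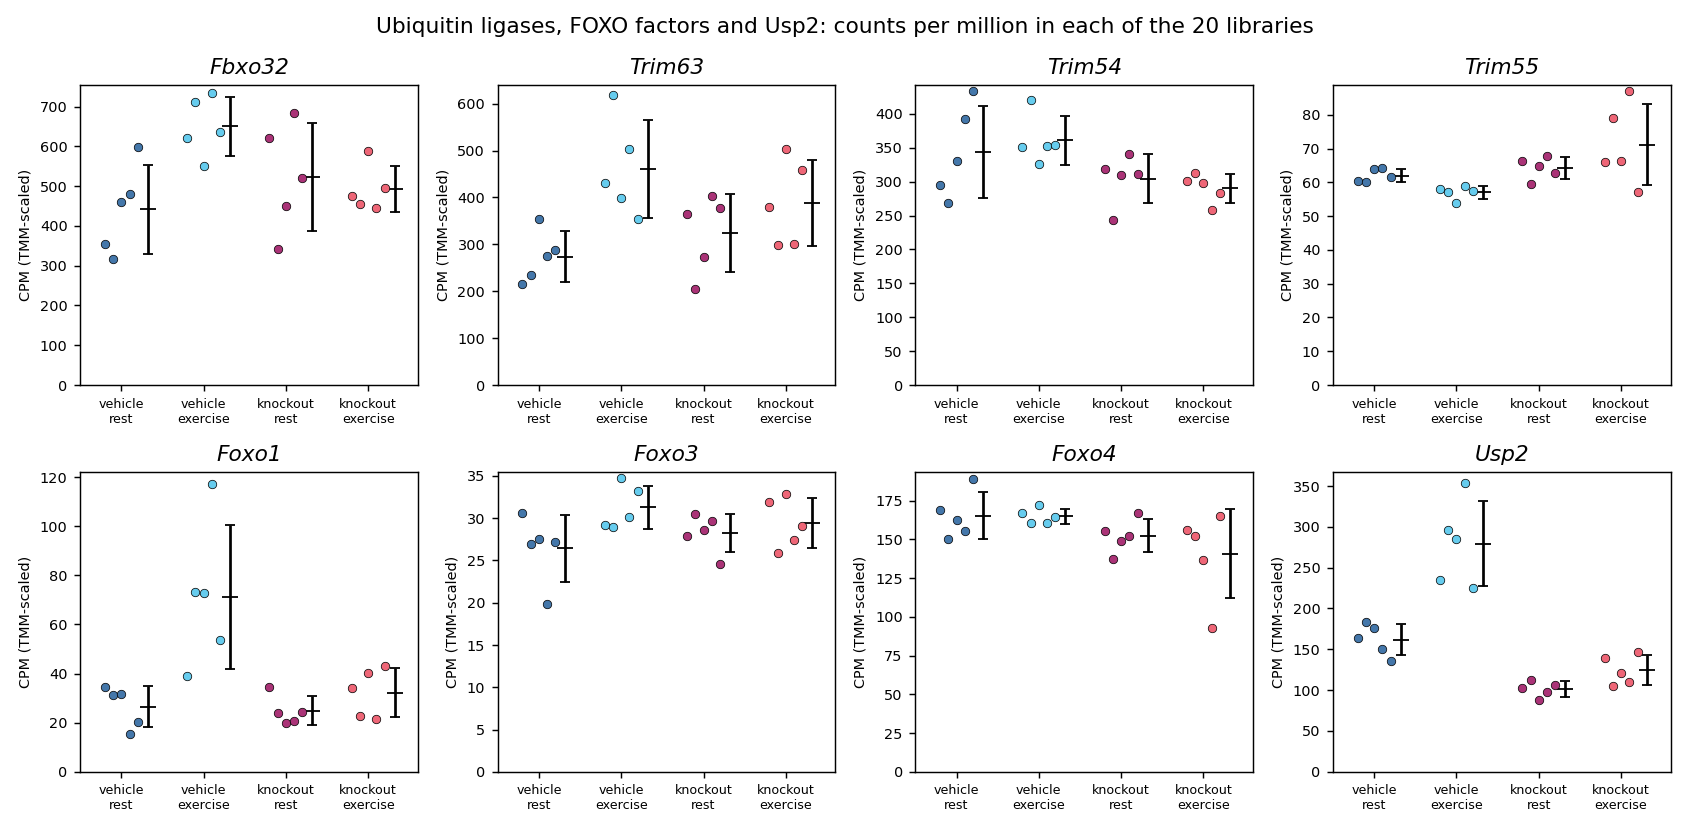
Level of each member in CPM in every sample, 1 panel per gene with its own axis starting at 0; points are samples, and the bar and whiskers are the mean and SD of 5 samples. Usp2 shows 2 separate bands by genotype at rest and after exercise, and the high Foxo1 values are those of exercised vehicle muscle.

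Foxo1, a FOXO factor that responds to fasting and glucocorticoids in muscle, was higher after exercise in vehicle muscle and lower in exercised knockout-labelled than in exercised vehicle muscle. In resting vehicle it read 34.34, 31.35, 31.76, 15.26 and 20.1 CPM (26.6 ± 8.37, SD, n = 5). In exercised vehicle it read 39.08, 73.17, 72.68, 117.1 and 53.51 CPM (71.1 ± 29.4, SD, n = 5). The exercised samples lay above the resting ones without overlap, though the closest pair was only 34.34 and 39.08 CPM apart. The rise was 2.67-fold (log2 1.42, SE 0.29, 95% interval 0.80 to 2.03, adjusted p = 0.0287). With Usp2 it made 2 of 8 members that passed for exercise in vehicle, both higher, where 0.804% of all genes passed, 0.605% higher and 0.199% lower. Ranges did not overlap for 2.04% of all genes in that comparison, and for Usp2, Foxo1 and Trim55 among the members.

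In knockout-labelled muscle Foxo1 read 34.69, 24.13, 19.81, 20.7 and 24.49 CPM at rest (24.8 ± 5.92, SD, n = 5). After exercise it read 34.25, 22.67, 40.05, 21.32 and 42.93 CPM (32.2 ± 9.88, SD, n = 5). These ranges overlapped, and the exercise difference of 0.39 (95% interval -0.23 to 1.01, adjusted p = 0.9995) did not pass. At rest the genotypes differed by -0.10 (95% interval -0.73 to 0.52, adjusted p = 0.927). After exercise the knockout-labelled level was 0.455 times that of vehicle (log2 -1.14, SE 0.29, 95% interval -1.74 to -0.53, adjusted p = 0.0245). The ranges overlapped there, since 2 knockout-labelled samples exceeded the lowest vehicle sample of 39.08 CPM. The difference between both exercise responses was -1.03 (95% interval -1.90 to -0.16, adjusted p = 0.803).

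The Foxo1 calls rested on few samples. The highest reading, 117.1 CPM, came from replicate 4 of exercised vehicle, 1 of the 5 samples low in slow-fibre markers. Without those 5 samples the exercise difference in vehicle was 0.96 (adjusted p = 0.240) and the genotype difference after exercise -0.49 (adjusted p = 0.531), neither passing. The difference between both responses was then -0.29 in place of -1.03. The part of fibre mix in these results was not tested beyond that and a fit with the slow-fibre score as a covariate, in which both passed (adjusted p = 0.0204 and 0.0184). The exercise call in vehicle was lost in 6 of 10 fits that left out 1 sample, namely replicates 2, 4 or 5 of resting vehicle (adjusted p up to 0.0943) and replicates 2, 3 or 4 of exercised vehicle (up to 0.0749). The genotype call after exercise was lost without replicates 2 or 4 of exercised vehicle or 2 or 4 of exercised knockout-labelled muscle (adjusted p 0.0502 to 0.0674). An antisense gene, Gm20402, covers 7.78% of the Foxo1 exon length and held 8 to 165 counts per sample. Whether counting used strand is not given in the sources used here, so reads of the overlapping stretch cannot be assigned to either gene.

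Foxo3 and Foxo4, the other FOXO factors among the members, passed in no comparison. Foxo6, a FOXO gene outside the members, passed for genotype averaged over both states (log2 -0.60, adjusted p = 0.0173 by edgeR). Foxo3 had group means of 26.4 ± 3.99 CPM in resting vehicle, 31.3 ± 2.56 in exercised vehicle, 28.2 ± 2.26 in resting knockout-labelled and 29.4 ± 2.94 in exercised knockout-labelled muscle (SD, n = 5 each). Its exercise difference in vehicle was 0.24 (95% interval 0.03 to 0.45, adjusted p = 0.447). A Foxo3 genotype difference as large as that of Usp2 at rest lay outside its interval of -0.12 to 0.31. Foxo4, which is on the X chromosome, had means of 165 ± 15.0, 165 ± 4.88, 152 ± 10.7 and 141 ± 28.7 CPM in the same order of groups. The low end of the last group was a single reading of 92.85 CPM in replicate 4, another sample low in slow-fibre markers. Its genotype difference after exercise was -0.23 (95% interval -0.46 to 0.00, adjusted p = 0.259), and -0.11 without replicate 4 of exercised knockout-labelled muscle.

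Among the ligases, Fbxo32 encodes the F-box subunit of an SCF ligase, and Trim63, Trim54 (MuRF3) and Trim55 (MuRF2) are RING-finger proteins of the sarcomere. Fbxo32 read 355, 315.7, 459.6, 479.9 and 599.5 CPM in resting vehicle and 620.8, 711.2, 550.1, 733.5 and 637.1 CPM in exercised vehicle. The highest resting sample exceeded the lowest exercised one, so the groups overlapped, and the difference of 0.56 (SE 0.17, 95% interval 0.21 to 0.91) did not pass adjustment (adjusted p = 0.170). In resting knockout-labelled muscle Fbxo32 read 621.2, 341.3, 450.8, 683.2 and 520.4 CPM, and in exercised knockout-labelled muscle 475.2, 454.2, 589.5, 444.8 and 495.9 CPM. The exercise difference there was -0.09 (95% interval -0.44 to 0.26, adjusted p = 0.9995). The difference between the responses was -0.65 (95% interval -1.14 to -0.15, adjusted p = 0.780). After exercise the genotypes differed by -0.40 (95% interval -0.75 to -0.05, adjusted p = 0.176, and -0.21 without the 5 samples low in slow-fibre markers), and at rest by 0.24 (95% interval -0.10 to 0.59, adjusted p = 0.559).

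Trim63, the gene with the FOXO element shown above, read 215, 234.3, 355, 275.3 and 286.9 CPM in resting vehicle and 430.1, 619.3, 398.6, 503.8 and 353.2 CPM in exercised vehicle. A single pair overlapped, 355 CPM at rest and 353.2 CPM after exercise. Its difference of 0.75 (SE 0.20, 95% interval 0.34 to 1.17) did not pass (adjusted p = 0.0904). It passed in 1 of 11 alternatives, by DESeq2 (adjusted p = 0.0136), and in none of 10 fits that left out 1 sample. The highest readings, 619.3 and 503.8 CPM, came from replicates 2 and 4, both low in slow-fibre markers, and without the 5 such samples the difference was 0.54 (adjusted p = 0.498). In knockout-labelled muscle the levels were 365.8, 204, 272.8, 402.6 and 377.3 CPM at rest and 379.9, 298.3, 502.7, 301.6 and 457.9 CPM after exercise. That is a difference of 0.26 (95% interval -0.15 to 0.67, adjusted p = 0.9995) with wide overlap. The genotype difference after exercise was -0.25 (95% interval -0.66 to 0.16, adjusted p = 0.535), and 0.18 without the 5 samples low in slow-fibre markers, so its sign was not stable.

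Trim55 was the member that was higher in exercised knockout-labelled than in exercised vehicle muscle. It was nearly constant in the other groups, with means of 62.0 ± 1.94 CPM in resting vehicle, 57.1 ± 1.91 in exercised vehicle and 64.3 ± 3.22 in resting knockout-labelled muscle (SD, n = 5 each). Its vehicle ranges at rest and after exercise were apart, with a difference of -0.12 (adjusted p = 0.791) that did not pass. In exercised knockout-labelled muscle it read 66.08, 79.13, 66.31, 87.18 and 57.24 CPM (71.2 ± 11.9), so that 1 sample fell within the vehicle range. The log2 difference was 0.32 (SE 0.09, 95% interval 0.13 to 0.50, adjusted p = 0.0321). The highest readings were those of replicates 4 and 2, both low in slow-fibre markers, and without all 5 such samples the difference was 0.16 (adjusted p = 0.478). The call was lost in 7 of 10 fits leaving out 1 sample, namely any of the 5 exercised vehicle replicates (adjusted p 0.0506 to 0.0735) and replicates 2 or 4 of exercised knockout-labelled muscle (up to 0.0991). Together Usp2, Foxo1 and Trim55 made 3 of 8 members that passed for genotype after exercise, where 6.42% of all genes passed, 3.75% lower and 2.67% higher. With library size as the only scaling that split of all called genes was 396 lower and 449 higher, and the directions of the 3 members were the same.

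Trim54 had lower levels in exercised knockout-labelled than in exercised vehicle muscle without passing the test. The vehicle samples read 350.6, 421, 325.6, 353.1 and 354.5 CPM, and the knockout-labelled samples 300.4, 312.7, 298.2, 257.6 and 282.6 CPM. The ranges were apart, as they were for 6.29% of all genes in that comparison, and the difference was -0.31 (95% interval -0.56 to -0.07, adjusted p = 0.120). Only with the slow-fibre score as a covariate did it pass (adjusted p = 0.0323). Over the 11 alternatives the difference ran from -0.33 to -0.23, with adjusted p up to 0.504. The readings of 421 and 257.6 CPM came from samples low in slow-fibre markers. The antisense gene Gm15469 covers 26.6% of the Trim54 exon length and held 841 to 1881 counts per sample, so the Trim54 values are uncertain where strand was not used. For Fbxo32 the overlap with Gm15943 is 2.67% of the exon length.

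Over all 8 members the median log2 difference with exercise was 0.40 in vehicle muscle, against 0.00 for all genes tested, with 6 positive and 2 negative values. In knockout-labelled muscle the median was 0.10, with 5 positive and 3 negative values, and no member passed. The ranges of rest and exercise overlapped for all 8 members, while they were apart for 0.848% of all genes. By edgeR no gene at all passed there (0%), 639 genes (4.71%) having an unadjusted p under 0.05, among them 1 of 8 members. The median genotype difference of the members was -0.28 after exercise and -0.03 at rest, against 0.01 for all genes in each. An unadjusted p under 0.05 was reached by 1 of 8 members for genotype at rest (14.6% of all genes), 5 for genotype after exercise (19.4%) and 5 for exercise in vehicle (8.92%). The comparisons of genotype after exercise and of exercise in vehicle share the exercised vehicle samples, so these medians are not independent of each other. The difference between responses was negative for 7 of 8 members, with a median of -0.34. Without the 5 samples low in slow-fibre markers it was negative for the same number of members, with a median of -0.14, and the value of Trim63 went from -0.50 to -0.08. The median genotype difference after exercise was then -0.17. None passed there, and edgeR called no gene (0%). The 4 members with an unadjusted p under 0.05 (Usp2, Fbxo32, Foxo1 and Trim55) stand beside 5.83% of all genes. DESeq2 and limma-voom called no member there either.

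**Figure D3:**
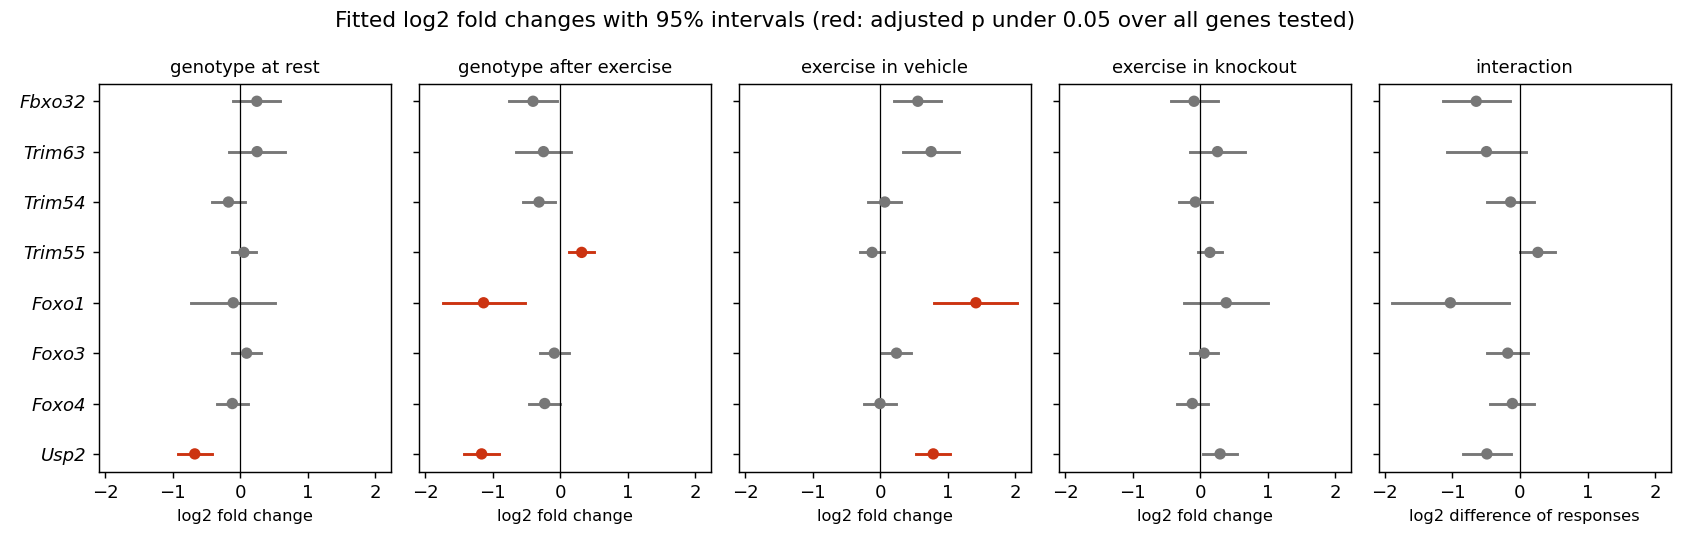
Log2 difference of each member with its 95% interval in 5 comparisons, from edgeR's quasi-likelihood fit to 20 samples; red marks an adjusted p under 0.05. Red intervals are those of Usp2 in 3 comparisons, Foxo1 in 2 and Trim55 in 1.

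The wider pathway was described by 6 lists. Of 24 other ubiquitin ligases and adaptors tested, 1 was higher and 1 lower between genotypes at rest, and 1 higher and 1 lower after exercise. That is 8.33% in each, against 3.86% and 6.42% of all genes. None passed for exercise in vehicle or knockout-labelled muscle by edgeR or any other tool run. In each of these, 1 of 24 had an unadjusted p under 0.05, against 8.92% and 4.71% of all genes. The median genotype difference was 0.03 at rest and 0.10 after exercise. Fbxo40, a muscle F-box gene whose product targets IRS1, was higher in knockout-labelled muscle, at 540 ± 27.3 against 396 ± 22.2 CPM at rest (log2 0.45, adjusted p = 0.0115) and 571 ± 98.3 against 386 ± 43.0 CPM after exercise (log2 0.56, adjusted p = 0.00114). It passed in every fit that left out 1 sample. Fbxo21 was lower at rest (log2 -0.52, adjusted p = 0.0252, up to 0.0781 without replicate 5 of resting vehicle) and Fbxo31 after exercise (-0.33, adjusted p = 0.0346, up to 0.0851 without replicate 4 of exercised knockout-labelled muscle).

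Of 25 FOXO target genes, 1 passed for genotype at rest (4%, against 3.86% of all genes) and 1 for exercise in vehicle (4%, against 0.804%). For averaged genotype 2 passed (8%, against 11.0% of all genes), and for averaged exercise 2 (8%, against 0.634%). Klf15, a glucocorticoid-responsive factor, rose with exercise in vehicle muscle from 43.3 ± 5.32 to 64.7 ± 11.1 CPM (log2 0.58, adjusted p = 0.0397), a call kept in 2 of 10 fits that left out 1 sample and at 0.141 without replicate 3 of exercised vehicle. Pdk4, the kinase that restrains pyruvate oxidation, was higher in resting knockout-labelled muscle (805 ± 294 against 437 ± 16.0 CPM, log2 0.88, adjusted p = 0.0478), a call also kept in 2 of 10 such fits (0.174 without replicate 2 of resting knockout-labelled muscle). Averaged over both states Pdk4 was higher by 0.80 (adjusted p = 0.00381) and Sesn1, a stress-induced gene, by 0.44 (adjusted p = 0.0157). Averaged over genotypes Irs2, an adaptor of the insulin receptor, rose by 1.57 with exercise (adjusted p = 0.0389) and Pdk4 by 0.76 (adjusted p = 0.0480), calls kept in 6 and 2 of 20 fits that left out 1 sample. No FOXO target passed for genotype after exercise, where 6.42% of all genes did, and the list median was 0.00 (DESeq2 called 2). There 4 of 25 had an unadjusted p under 0.05, against 19.4% of all genes. In that comparison Foxo1 differed by -1.14, and by -0.49 without the 5 samples low in slow-fibre markers. A link between Foxo1 and these genes was not tested.

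Of 20 genes upstream of FOXO and of the ligases, 3 were lower in exercised knockout-labelled muscle (15%, against 3.75% of all genes). None was higher, against 2.67% of all genes, and the list median was -0.08. Nr3c1, the glucocorticoid receptor gene, rose with exercise in vehicle muscle from 69.2 ± 5.95 to 107 ± 25.5 CPM (log2 0.63, adjusted p = 0.0154, 0.0610 without replicate 4 of exercised vehicle). Its level was 69.5 ± 8.32 CPM in resting and 66.8 ± 7.72 CPM in exercised knockout-labelled muscle, and the genotype difference after exercise was -0.68 (adjusted p = 0.00148). Akt1, a kinase that inactivates FOXO proteins, was lower by 0.62 after exercise (adjusted p = 0.00187) and by 0.43 at rest (adjusted p = 0.0470, lost in 9 of 10 fits leaving out 1 sample). Smad3, which carries myostatin signals, was lower by 0.77 after exercise (79.5 ± 10.4 against 135 ± 29.2 CPM, adjusted p = 0.00206). Ep300, an acetyltransferase gene, was lower at rest (-0.38, adjusted p = 0.0325, up to 0.101 without replicate 5 of resting knockout-labelled muscle). Averaged over both states 5 of the 20 were lower (Akt1, Smad3, Ep300, Nr3c1 and Foxo6) and Acvr2a, a myostatin receptor gene, was higher by 0.37 (adjusted p = 0.0310). Of all genes, 5.78% were lower and 5.18% higher there.

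Of 32 proteasome subunits none passed for genotype at rest, where 3.86% of all genes did. After exercise 3 passed, in both directions (9.38%, against 6.42% of all genes). At rest 30 of 32 had a positive genotype difference with a median of 0.19, against 0.01 for all genes. By edgeR 15 of 32 had an unadjusted p under 0.05, against 14.6% of all genes. DESeq2 and limma-voom called none, and the edgeR fit with the slow-fibre covariate called 8. After exercise 26 of 32 differences were positive and 6 negative. Psmd12 (0.37, adjusted p = 0.0277) and Psmc6 (0.33, adjusted p = 0.0480) were higher, and Psmb5, a catalytic subunit, was lower (-0.45, adjusted p = 0.0498). Psmb5 lost this call in all 10 fits that left out 1 sample, Psmc6 in 8 and Psmd12 in 4. Averaged over both states 5 of 32 were higher and none lower (15.6%), against 5.18% higher and 5.78% lower of all genes. There 29 of 32 differences were positive and 3 negative, with a median of 0.12. Psmd14 (0.31), Psmd12 (0.30) and Psmc6 (0.29) kept that averaged call in all 20 fits that left out 1 sample. Psma3 (0.25) kept it in 5 and Psmd1 (0.26) in 4. Of 18 genes for ubiquitin and for E1 and E2 enzymes, which activate ubiquitin and pass it on, 2 were lower after exercise (11.1%, against 3.75% of all genes). These were Ube2g2 (-0.36, adjusted p = 0.0333) and Ube2d2a (-0.26, adjusted p = 0.0381). They kept their calls in 3 and 2 of 10 such fits.

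Of 41 other ubiquitin-specific proteases tested, none was called lower in knockout-labelled muscle at rest, after exercise or averaged over both states. Of all genes, 2.06%, 3.75% and 5.78% were called lower there, as was Usp2. At rest 14 of the 41 had a negative difference, the lowest being -0.87 without passing, against -0.67 for Usp2. Usp9x was higher at rest (58.6 ± 16.1 against 36.0 ± 4.74 CPM, log2 0.70, adjusted p = 0.0133), and Usp28 (0.34, adjusted p = 0.0105) and Usp16 (0.31, adjusted p = 0.0355, up to 0.120 without 1 sample) were higher after exercise. That is 2.44% and 4.88% of the 41 called higher, against 1.80% and 2.67% of all genes. Averaged over both states 4 of 41 were higher (9.76%, against 5.18% of all genes), namely Usp9x, Usp16, Usp28 and Usp4. Each kept that averaged call in all 20 fits that left out 1 sample. The family's median genotype difference was 0.05 at rest and 0.08 after exercise. No other ubiquitin-specific protease passed for exercise in vehicle, where 0.804% of all genes did, and no other tool called any. There 2 of 41 had an unadjusted p under 0.05, against 8.92% of all genes. Without the 5 samples low in slow-fibre markers, Fbxo40, Akt1, Nr3c1 and Psmc6 still passed for genotype after exercise. The other list genes named there did not: Smad3 (adjusted p = 0.0521), Usp28 (0.0683), Psmd12 (0.144), Usp16 (0.144), Ube2d2a (0.305), Fbxo31 (0.331), Psmb5 (0.447) and Ube2g2 (0.517). In those 15 samples Nr3c1 differed by 0.35 (adjusted p = 0.292) and Klf15 by 0.57 (adjusted p = 0.162) for exercise in vehicle. At rest Fbxo40, Akt1, Ep300 and Usp9x still passed, while Pdk4 (adjusted p = 0.158) and Fbxo21 (0.0629) did not. Sesn1 (0.0627), Psma3 (0.0679), Usp9x (0.103) and Acvr2a (0.130) did not pass for averaged genotype, nor Pdk4 (0.302) for averaged exercise.

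**Figure D4:**
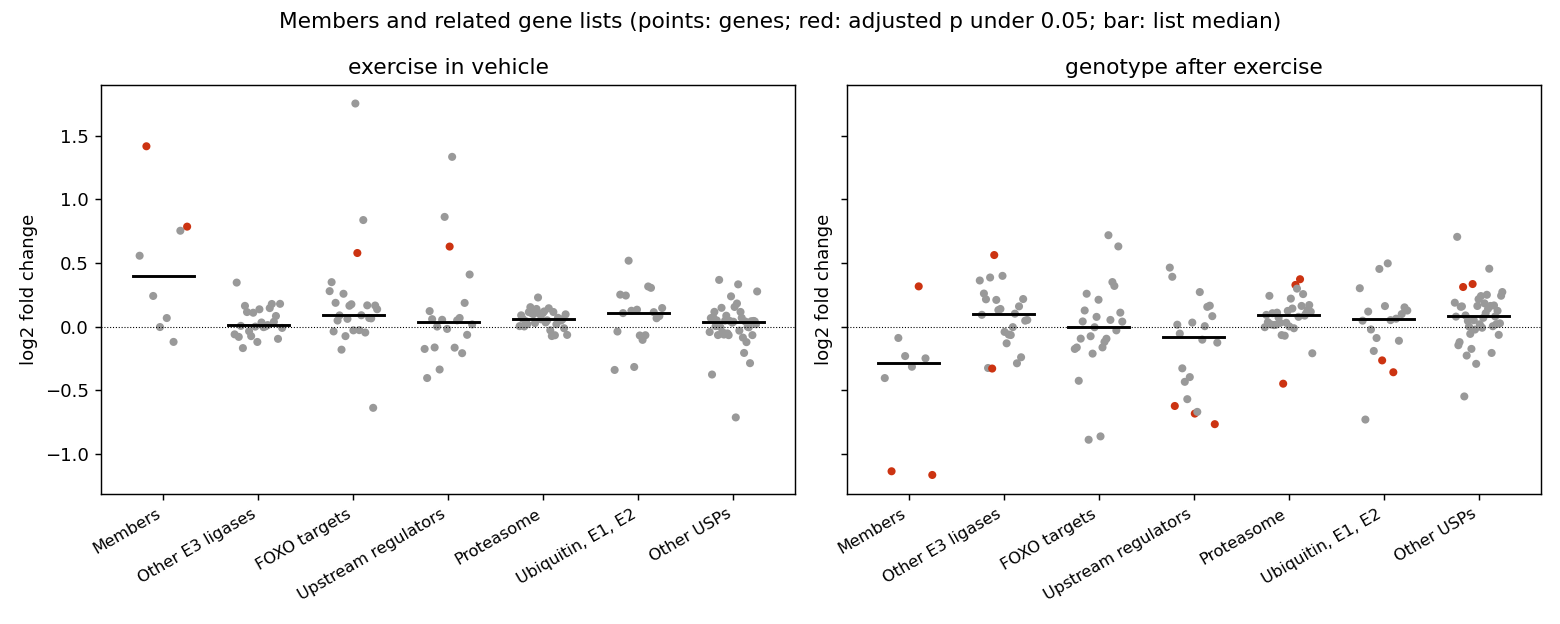
Log2 differences of the members and of the genes of 6 lists for exercise in vehicle and for genotype after exercise; each point is a gene, red marks an adjusted p under 0.05, and the bar is the list's median. Usp2 and Foxo1 are the red points farthest from 0 among the members in the panel of genotype after exercise, near -1.16 and -1.14.

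For the 3 members that passed in some comparison, the genes with the most alike pattern were sought among 11715 genes, as the smallest root mean square difference of log2 CPM, each gene centred on its mean over the 20 samples. For Usp2 the nearest was Zfp612 (0.217), against a median of 0.628 over all genes compared. Zfp612, a zinc finger gene, had group means of 8.31 ± 0.88, 11.8 ± 1.37, 5.02 ± 0.84 and 6.35 ± 0.71 CPM, in the order resting vehicle, exercised vehicle, resting and exercised knockout-labelled. For Foxo1 they were Srxn1 (0.318), an antioxidant enzyme gene, and Btg2 (0.346), an antiproliferative gene, against a median of 0.766. Srxn1 rose from 26.3 ± 4.82 to 59.3 ± 21.2 CPM with exercise in vehicle muscle, and Btg2 from 11.3 ± 3.97 to 32.1 ± 14.0 CPM (adjusted p = 0.0150 and 0.0336). These calls were kept in 7 and 4 of 10 fits that left out 1 sample, and that of Srxn1 was lost without the 5 samples low in slow-fibre markers (adjusted p = 0.157). For Trim55 they were Bnip3l (0.0854) and Tmem50a (0.0878), against a median of 0.293, and neither passed for genotype after exercise (adjusted p = 0.254 and 0.213).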

How the data were processed

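The authors deposited 1 table of whole-number counts per gene symbol for 20 gastrocnemius samples. Per the submitters' processing notes, STAR 2.7.8a, Partek and DESeq2 were used and the builds mm10 and GRCm39 are named; the counting program, the annotation, the use of strand, and which build the counts rest on are not given in the sources used here. Per the labels' protocols, Trizol and a Qiagen kit served for extraction. Groups came from the treatment labels. Total counts of 8045154 to 11269812 limit precision through counting error and, more, through the 5 samples a group. Replicates differed by more than sampling noise, with a chi-square per degree of freedom of at least 3.99.

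With edgeR 4.0.16 in R 4.3.3, filterByExpr (minimum count 10) left 13560 genes, TMM factors (trimmed mean of M-values) scaled the libraries, and the robust quasi-likelihood model was fitted to all samples. The 7 contrasts were adjusted by Benjamini-Hochberg over all genes, with a threshold of 0.05. SE and 95% intervals came from the F statistics. The steps were tested on simulated counts. Exon lengths, overlaps and positions came from GENCODE M21 (GRCm38), matched by symbol (97.06% of symbols found); promoters came from RefSeq GRCm38.p6. Of 106 repeated symbols, every entry was kept.

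All 8 members were described, up to 5 passing genes a list with the smallest p, and the 2 genes most like each member called, of which 1 is not reported here. Members, lists and rules were chosen with earlier results of these data known. Alternatives covered scaling, filters, DESeq2 1.42.0, limma-voom (limma 3.58.1), dispersions, the samples fitted, a replicate block, the slow-fibre score as a covariate, each sample left out, and 5 samples low in slow-fibre markers left out, the last added after seeing the data.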

Additional observations from a re-analysis of the deposited data

Results flagged for a closer look

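Within groups of 5 samples, the gap of the highest or lowest sample to its neighbour was compared with Dixon's 95% critical value of 0.71. Chance marks about 1 in 20 such sets. None of the 32 sets of the members exceeded it, and 9 of 128 sets of other named genes did. High readings were Fbxo31 at 178 CPM in replicate 5 of resting vehicle (next 154), Ubr2 at 120 in replicate 2 of resting knockout-labelled muscle (next 111), Klf15 at 52.6 in replicate 3 of resting vehicle (next 42.8), Psmb5 at 43.4 in replicate 1 of resting knockout-labelled muscle (next 29.9) and Usp16 at 60.1 in its replicate 3 (next 52.3). In replicate 4 of exercised knockout-labelled muscle, a sample low in slow-fibre markers, Psmd12 read 140 CPM (next 104) and Usp4 130 (next 106). Low readings were Ep300 at 44.7 CPM (next 56.9) and Usp9x at 27.7 (next 37), both in replicate 4 of resting vehicle.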

How the results depend on the processing

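Usp2 kept its direction and its call under every alternative run for the 5 comparisons in which it passed. Members passing for genotype at rest (1), exercise in knockout-labelled muscle (0) and the difference between responses (0) did not change. For exercise in vehicle (2 members) the number was 1 with library size only, no filter, both groups of the contrast only, the replicate block or the 5 samples low in slow-fibre markers left out, 3 by DESeq2, and 1 to 2 with 1 sample left out. For genotype after exercise (3) it was 1 with both groups only or the 5 samples left out, 4 with the slow-fibre covariate, and 1 to 3 with 1 sample left out. For genotype averaged over states (1) it was 2 with library size only, no filter or non-robust dispersions, 4 by DESeq2 or with the slow-fibre covariate, and 1 to 3 with 1 sample left out. For exercise averaged over genotypes (1) it was 3 by DESeq2, 2 by limma-voom, with non-robust dispersions or the covariate, and 1 to 2 with 1 sample left out. Deviations of same-numbered samples correlated with r from -0.45 to 0.44 over 30 pairs (median 0.09, 15 above 0.1), against a median of -0.02 and 39 of 120 above 0.1 for pairs of different numbers, and 4 of 20 samples correlated best with their own number. Not every pair was above 0.1, so the numbers were not taken to pair the samples. In the replicate block Usp2 for exercise in vehicle had an adjusted p of 0.00462.

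Some signs turned, all for values that had not passed; the largest such values were Trim63 for genotype after exercise (-0.25) and Trim55 for exercise in knockout-labelled muscle (0.15). Without the 5 samples these were Fbxo32 (0.0799) and Trim63 (0.221) for averaged genotype, Trim63 for genotype after exercise (0.182), Foxo4 for averaged exercise (0.0368), exercise in knockout-labelled muscle (0.00459) and in vehicle (0.0690), Trim54 (0.0176) and Trim55 (-0.0842) for averaged exercise, and Trim55 for exercise in knockout-labelled muscle (-0.0246). With the covariate they were Foxo3 (-0.00383) and Trim63 (0.0114) for averaged genotype, Foxo4 for exercise in vehicle (0.0157) and Trim55 for averaged exercise (-0.0543). Others were Foxo3 with no filter (-0.00969) and Trim63 with library size only (0.0324) for averaged genotype, Trim55 with library size only (-0.00639) for averaged exercise, Foxo4 for exercise in vehicle by limma-voom (0.00141) and in the block (0.00344), and Trim54 for averaged exercise likewise (0.0100 and 0.00826). With 1 sample left out, values ran from -0.210 to 0.0253 for Fbxo32 for exercise in knockout-labelled muscle, -0.0406 to 0.0259 for Foxo3 and -0.0657 to 0.0642 for Trim63 for averaged genotype, and -0.0442 to 0.0474 for Trim54 and -0.0280 to 0.0430 for Trim55 for averaged exercise. Trim54 ran from -0.0158 to 0.165 for exercise in vehicle. Foxo4 ran from -0.0957 to 0.000268 for averaged exercise, -0.184 to 0.00281 for exercise in knockout-labelled muscle, -0.0419 to 0.0503 for exercise in vehicle and -0.176 to 0.00508 for the difference between responses. The cause of these changes was not tested.

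Over all genes, the 109 called for exercise in vehicle became 61 (both groups only) to 250 (covariate), and 52 without replicate 5 of resting vehicle, the 870 for genotype after exercise 304 (5 samples left out) to 1424 (covariate), the 523 at rest 428 to 849 (367 without replicate 3 of resting vehicle), and the 86 for averaged exercise 61 to 269 (35 without replicate 4 of resting vehicle). Calls for exercise in knockout-labelled muscle reached 6 (covariate) and for the difference between responses 3 (DESeq2). Proteasome calls at rest were 0 to 8 (covariate). Foxo1, at as few as 124 counts, and Foxo3, at 161, had the lowest depth.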
